A study of Mus musculus with 6 samples.

Results

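The 39 genes described here mark lymphocytes and the tissue that organises them: the T cell receptor and its coreceptors, T cell signalling and homing genes, B cell genes, immunoglobulin and plasma cell genes, and chemokines and other genes of lymph node stroma. They were named by symbol as a module of lymphocyte and lymph node genes, and 36 of the 39 were matched among the 14861 genes of the deposited table. Cr2, Fcer2a and Glycam1 were not analysed here. The RNA came from inguinal white adipose tissue, a subcutaneous depot with the inguinal lymph node inside it, of AdIGF1RKO mice and of their Flox littermates, with 3 libraries per group. AdIGF1RKO mice carry floxed Igf1r alleles (B6;129 stock) and an Adipoq-Cre transgene (B6;FVB stock), so the insulin-like growth factor 1 receptor gene is deleted where the adiponectin promoter is active, in adipocytes, while lymphocytes and stroma keep it. Flox mice carry the floxed alleles, and the labels give neither their Cre status nor the sex or age of either group. Both groups were kept for 24 weeks on chow with 10% of energy as fat, followed by an overnight fast.

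A T cell recognises antigen through a receptor of paired variable chains whose constant parts are encoded by Trac, Trbc1 and Trbc2, carried to the surface by the CD3 proteins. A B cell uses membrane immunoglobulin with CD79A and CD79B in the same way, and a plasma cell secretes immunoglobulin in large amounts. In a lymph node, CXCL13 draws B cells into follicles, while CCL19 and CCL21 draw T cells and dendritic cells bearing CCR7, and lymphotoxin from lymphocytes keeps the stroma that makes these chemokines. Fat pads hold lymph nodes as well as scattered lymphocytes, and the labels do not say whether the inguinal node was taken with the tissue. In RNA from whole tissue, fewer cells of a type and less RNA per cell cannot be told apart.

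Several members have close copies whose reads cannot be assigned with certainty, and the sequences show where. Trbc1 (chr6:41538218-41539881, plus strand) and Trbc2 (chr6:41546730-41548352, plus strand) each have 521 coding bases in GENCODE M21 on GRCm38, an earlier build than the GRCm39 of the submitters' processing notes, and differ at 23 of them (95.6% identity). Only 1 of these 23 lies in the first 375 bases, which are the constant exon next to the joining segment, and 22 lie in the other 146. Coding bases 261 to 521 are shown because they hold nearly all the positions that tell the genes apart, in capitals.
Trbc1: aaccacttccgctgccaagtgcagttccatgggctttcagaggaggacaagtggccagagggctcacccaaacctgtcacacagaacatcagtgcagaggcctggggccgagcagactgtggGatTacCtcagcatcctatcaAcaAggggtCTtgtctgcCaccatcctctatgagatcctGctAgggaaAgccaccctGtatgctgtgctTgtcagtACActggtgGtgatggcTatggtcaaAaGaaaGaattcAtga
Trbc2: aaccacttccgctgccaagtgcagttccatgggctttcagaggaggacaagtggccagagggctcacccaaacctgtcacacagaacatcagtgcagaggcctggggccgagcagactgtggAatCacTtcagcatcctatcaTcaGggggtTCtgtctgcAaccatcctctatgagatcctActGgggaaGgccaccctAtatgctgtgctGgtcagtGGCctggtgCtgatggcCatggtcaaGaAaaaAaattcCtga
Ccl21a and Ccl21b, genes for the lymph node chemokine CCL21, are closer still. Ccl21a (chr4:42772860-42773993, minus strand) and Ccl21b (chr4:42255767-42256432, plus strand) share all but 2 of 402 coding bases (99.5% identity), and coding bases 61 to 220 contain both differences, again in capitals.
Ccl21a: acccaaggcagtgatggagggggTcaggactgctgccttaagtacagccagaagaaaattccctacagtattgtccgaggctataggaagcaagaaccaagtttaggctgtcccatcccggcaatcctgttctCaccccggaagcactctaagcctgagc
Ccl21b: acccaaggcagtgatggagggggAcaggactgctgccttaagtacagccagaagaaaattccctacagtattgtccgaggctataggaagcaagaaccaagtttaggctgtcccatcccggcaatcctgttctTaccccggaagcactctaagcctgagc
For these genes a value per gene depends on how reads that match both copies were counted, which is not given in the sources used here. Sums over each of these pairs are therefore given as well. Ccl21d was not matched among the genes of the deposited table, so the CCL21 sum covers Ccl21a and Ccl21b only.

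The 6 libraries held 60617147 to 70695527 reads, with a median of 755 to 1120 reads per gene. Levels are given as scaled CPM, the reads of a gene per 1000000 reads after the libraries were brought to a common scale by median-ratio size factors. They are not divided by transcript length, so they serve to compare libraries for 1 gene and not genes with each other. Igf1r itself stood at 6.11, 5.27 and 4.85 scaled CPM in the AdIGF1RKO libraries, against 6.44, 6.47 and 5.86 in the Flox libraries, a log2 difference of -0.18 (SE 0.12, limma adjusted p = 0.998). The mean was lower on the side of the label, but the groups overlapped and the difference did not pass the test. Skeletal muscle genes took 0.0543%, 0.288% and 4.77% of the reads in the AdIGF1RKO libraries, against 0.914%, 0.107% and 13.2% in the Flox libraries, so the libraries numbered 3 stand apart in both groups. A summed list of pan-leukocyte genes ran at 448, 634 and 396 scaled CPM in the AdIGF1RKO libraries, against 545, 421 and 337 in the Flox libraries. All 7 genes were lowest in Flox 3, and 6 of them were highest in AdIGF1RKO 2. The part of the leukocyte RNA, and that of the muscle RNA, in the results was not tested.

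No member of the module differed between AdIGF1RKO and Flox fat after adjustment over all genes. Of the 36 members in the table, 27 reached the mean of 1 scaled CPM needed to enter the test and 9 did not. Of these 27, 12 were higher and 15 were lower in AdIGF1RKO tissue, with a median log2 difference of -0.025, beside -0.019 for all 12993 genes tested, of which 44.8% were higher. The signs depended on the scaling: 16 were higher and 11 lower with libraries scaled to equal sums, where the median of all genes was 0.094, and 10 were higher and 17 lower with the values as deposited, where it was -0.17. At an adjusted p under 0.05, 0 of the 27 passed in limma, where 0% of all genes did, and 0 passed in edgeR (0% of all genes) or in DESeq2 (0.177% of all genes, 23 of 12993). At an unadjusted p under 0.05, 2 of 27 passed in limma, Cd79b higher and Igkc lower, beside 2.96% of all genes tested (385 genes, 1.83% higher and 1.13% lower). With replicate number blocked, 2 of 27 passed as well (Cd79b and Cxcl13), beside 4.48% of all genes (582). With DESeq2 the unadjusted count was 5 of 27 (Cd79b, Il7r, Igkc, Cxcl13 and Jchain), beside 3.8% of all genes, and with edgeR 1 of 27 (Cd79b), beside 2.91%. The smallest adjusted p of any member was 0.289, for Cd79b in DESeq2. The values of the 3 libraries per group did not overlap for 2 of the 36 members (5.56%), Cd79b above and Cxcr5 below, beside 8.44% of all genes (4.45% above and 3.98% below).

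**Figure D1:**
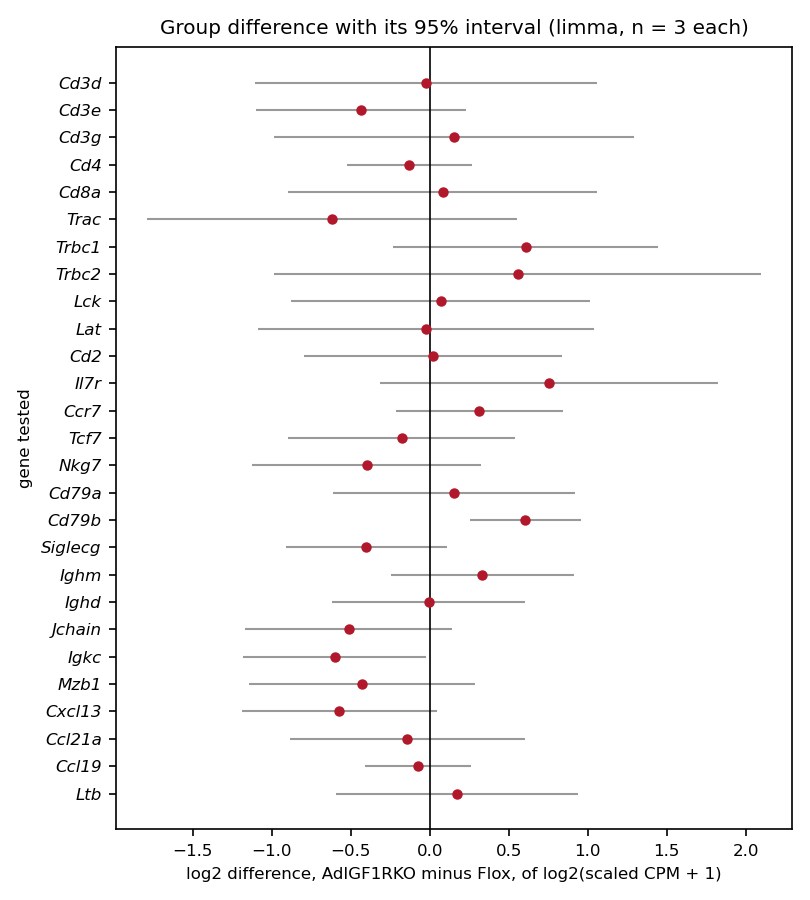
Log2 difference between AdIGF1RKO and Flox tissue (horizontal axis, log2 of scaled CPM plus 1) for the 27 members tested, grouped by role, with points for the limma estimate and bars for its 95% confidence interval. The interval lies above 0 for Cd79b and below 0 for Igkc, and covers 0 for the other 25 members.

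The spread among the Flox mice was wide for many members, and it was shared between genes. Flox 1 gave the highest value of the 6 libraries for 20 of the 36 members (55.6%), beside 12.0% of all genes, and the lowest for 0. Flox 3 gave the lowest value for 17 of 36 (47.2%), beside 26.1% of all genes, and the highest for 0, beside 29.4%. Among the 18 T cell members alone, 12 were highest in Flox 1 and 12 were lowest in Flox 3. Both ends of the range were Flox libraries for 13 of the 36 members (36.1%), beside 23.2% of all genes, and for 10 of the 18 T cell members. Flox 1 was highest and Flox 3 lowest together for 11 of the 36 (30.6%), beside 4.27% of all genes. The SD was larger among Flox than among AdIGF1RKO libraries for 22 of the 36 members and for 11 of the 18 T cell members. Both shares were near that of all genes, 56.9%.

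**Figure D2:**
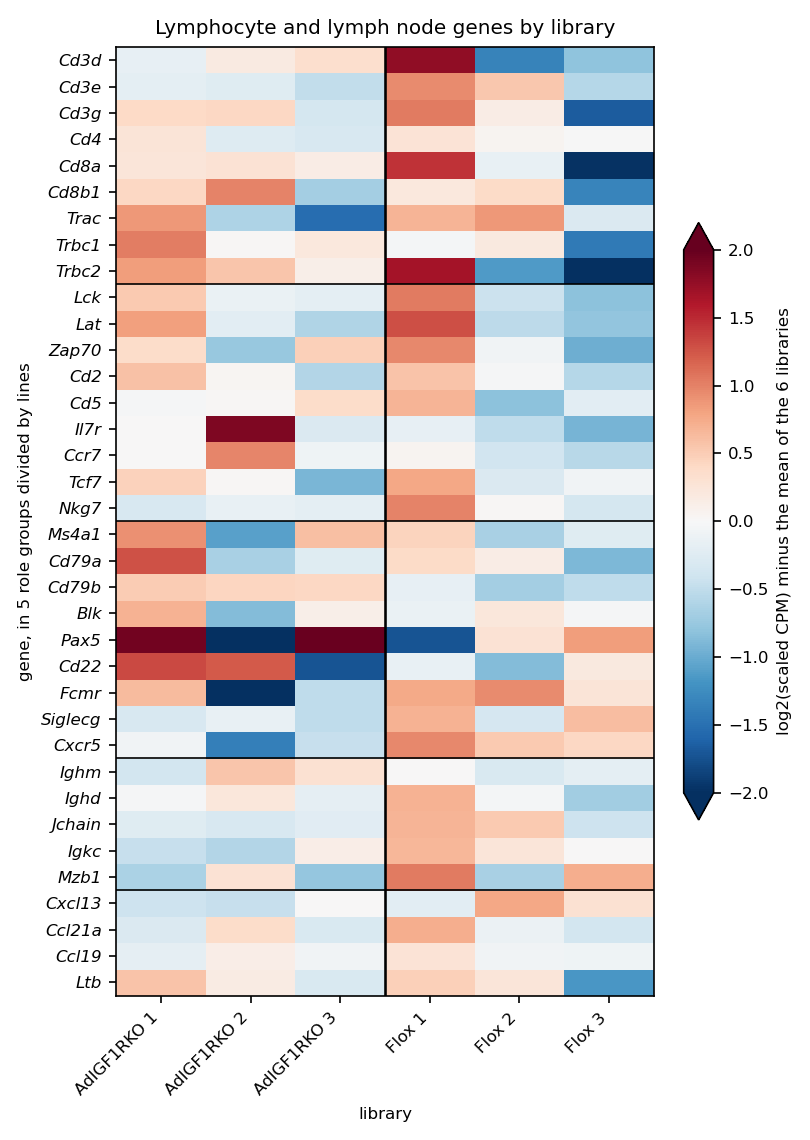
Each row is 1 of the 36 members in the table and each column 1 library, AdIGF1RKO 1 to 3 and then Flox 1 to 3; colour gives log2 scaled CPM minus the gene's mean over the 6 libraries, with the scale ending at 2 in each direction. Flox 1 is the highest library for 20 members and Flox 3 the lowest for 17.

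None of the T cell receptor and coreceptor genes passed the test, with 4 of the 8 tested higher and 4 lower in AdIGF1RKO tissue and a median log2 difference of 0.029. Their 9 members summed to 29.5, 21.0 and 16.1 scaled CPM in AdIGF1RKO libraries, against 37.7, 22.4 and 10.2 in Flox libraries, so the Flox mice enclosed all AdIGF1RKO mice. The means of the sums were 22.2 ± 6.75 in AdIGF1RKO and 23.4 ± 13.8 in Flox tissue (SD, n = 3 each). The ratio of AdIGF1RKO to Flox sums was 0.947 (log2 ratio -0.078). The log2 ratio was 0.45 without Flox 1, 0.11 without AdIGF1RKO 3 and -0.44 without Flox 3, so its sign rested on single mice.

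Trac, which encodes the constant part of the receptor's alpha chain, had 7.17, 2.56 and 1.37 scaled CPM in AdIGF1RKO libraries, against 6.29, 7.16 and 3.21 in Flox libraries. AdIGF1RKO 1 lay at the top of the Flox range and the other 2 AdIGF1RKO mice below it, and the log2 difference was -0.62 (SE 0.49, limma unadjusted p = 0.247). The beta chain genes stood the other way. Trbc1 had 6.33, 3.15 and 3.58 scaled CPM in AdIGF1RKO libraries, against 3.02, 3.54 and 1.16 in Flox libraries, a log2 difference of 0.61 (SE 0.35, limma unadjusted p = 0.128). Trbc2 had 4.84, 3.99 and 2.93 scaled CPM in AdIGF1RKO libraries, against 8.63, 1.24 and 0.663 in Flox libraries, with a log2 difference of 0.56 (SE 0.64, limma unadjusted p = 0.415) that was 1.33 without Flox 1 and 0.064 without Flox 3. Among Flox mice Trbc2 therefore ran over a 13.0-fold range, and the AdIGF1RKO mice fell inside it. Summed over both copies, the beta chain reached 11.2, 7.14 and 6.51 scaled CPM in AdIGF1RKO libraries, against 11.7, 4.78 and 1.82 in Flox libraries, and again the Flox mice enclosed the AdIGF1RKO mice. The ratio of Trbc2 to Trbc1 reads, a value chosen after the levels were seen, was 0.764, 1.27 and 0.819 in AdIGF1RKO libraries, against 2.86, 0.351 and 0.571 in Flox libraries. Flox 1 alone held far more Trbc2 than Trbc1 reads.

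Cd3g, a chain of the CD3 complex that carries the receptor's signal, had 4.05, 4.11 and 2.43 scaled CPM in AdIGF1RKO libraries, against 6.36, 3.42 and 0.974 in Flox libraries. The group means were 3.53 ± 0.955 in AdIGF1RKO and 3.58 ± 2.70 in Flox tissue (SD, n = 3 each), and the log2 difference was 0.15 (95% confidence interval -0.99 to 1.29). An interval this wide leaves room for a change of about 1 log2 unit in either direction, so a like level is not shown. Cd3d and Cd8a, which were singled out after their values were seen, were also highest in Flox 1. Cd3d, another CD3 chain, was at 0.934, 1.19 and 1.32 scaled CPM in AdIGF1RKO libraries, against 3.57, 0.413 and 0.601 in Flox libraries. Cd8a, the coreceptor of cytotoxic T cells, was at 1.35, 1.40 and 1.26 in AdIGF1RKO libraries, against 3.11, 1.03 and 0.290 in Flox libraries. For both genes the AdIGF1RKO mice lay close together with Flox 1 far above them and Flox 2 and Flox 3 below. The remaining members tested were Cd3e, the CD3 epsilon chain, with a log2 difference of -0.43, and Cd4, the coreceptor of helper T cells, with -0.13. Cd8b1, the other CD8 chain, was under the filter, with 0.488 to 1.54 scaled CPM in AdIGF1RKO and 0.311 to 1.01 in Flox libraries.

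**Figure D3:**
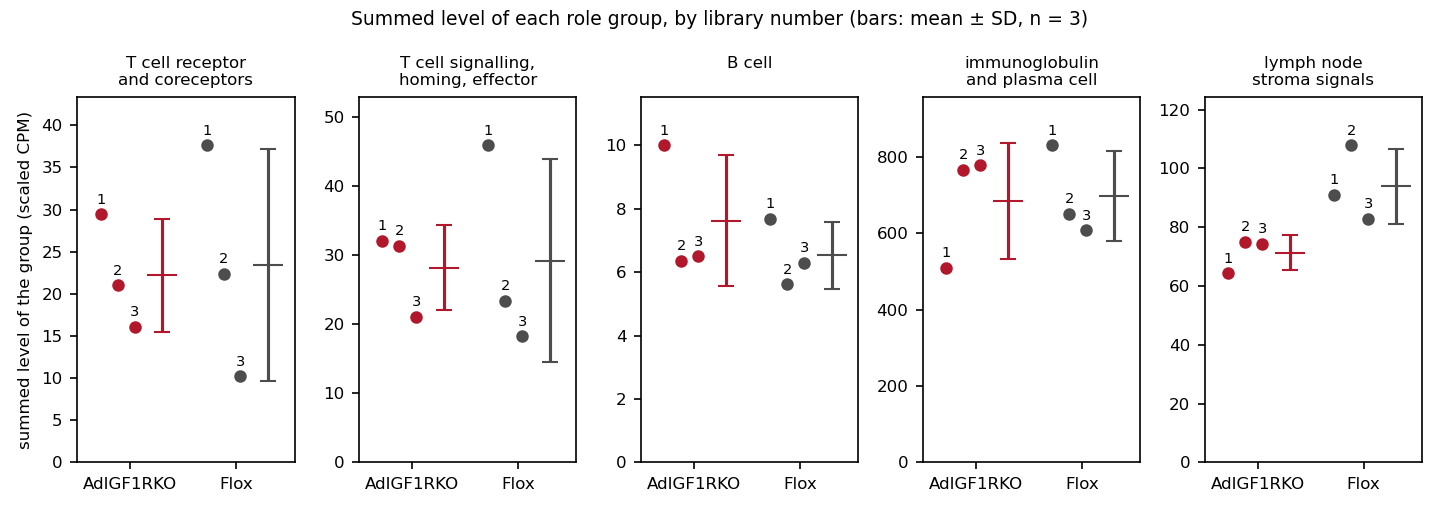
Summed scaled CPM of the members of each role group (vertical axes, linear from 0) in the AdIGF1RKO and Flox libraries; dots are libraries with their replicate numbers, and the bar beside them is the mean with its SD (n = 3 each). The groups overlap except for the stromal and organising genes, where the AdIGF1RKO libraries (64.4 to 75.1) lie under the Flox libraries (82.9 to 108).

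The T cell signalling, homing and effector genes also held no member past the test, with 4 of 7 tested members higher and 3 lower in AdIGF1RKO tissue and a median log2 difference of 0.020. Their 9 members summed to 32.1, 31.3 and 21.1 scaled CPM in AdIGF1RKO libraries, against 45.9, 23.4 and 18.3 in Flox libraries. Flox 1 was again above all AdIGF1RKO mice and Flox 3 below them. Cd2, an adhesion molecule of T and NK cells, had 10.3, 7.11 and 4.62 scaled CPM in AdIGF1RKO libraries, against 10.3, 6.79 and 4.64 in Flox libraries, a log2 difference of 0.020 (SE 0.34, limma unadjusted p = 0.955). Lck, the kinase that starts signalling from the receptor, had 4.67, 2.95 and 2.84 scaled CPM in AdIGF1RKO libraries, against 6.70, 2.41 and 1.84 in Flox libraries, with a log2 difference of 0.068 (SE 0.39). For Lck, too, Flox 1 and Flox 3 were the outermost libraries. Nkg7, a granule protein of cytotoxic T and NK cells, had 6.20, 7.03 and 6.79 scaled CPM in AdIGF1RKO libraries, against 15.4, 7.87 and 6.11 in Flox libraries. Its means were 6.67 ± 0.427 in AdIGF1RKO and 9.78 ± 4.92 in Flox tissue (SD, n = 3 each), with a log2 difference of -0.40 (SE 0.30, limma unadjusted p = 0.230), and the gap rested on Flox 1.

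Il7r, the interleukin-7 receptor chain on which naive and memory T cells depend, was high in 1 AdIGF1RKO library only. It had 2.06, 7.49 and 1.67 scaled CPM in AdIGF1RKO libraries, against 1.84, 1.44 and 1.08 in Flox libraries, from 159, 530 and 106 reads in AdIGF1RKO and 130, 101 and 52 in Flox libraries. The log2 difference was 0.76 (SE 0.45, limma unadjusted p = 0.136), and without AdIGF1RKO 2 it was 0.23. That library was also high in genes of lipid-laden macrophages. Of a list of 7, the 6 genes other than Lpl, which adipocytes express strongly, were all highest there, and summed to 161, 606 and 175 scaled CPM in AdIGF1RKO libraries, against 160, 170 and 174 in Flox libraries. In sum, a list of 10 general macrophage genes did not single it out. That list reached 1447, 1644 and 1214 scaled CPM in AdIGF1RKO libraries, against 1733, 1631 and 1113 in Flox libraries. Of these 10 genes, however, 4 were highest in AdIGF1RKO 2, beside 5 in Flox 1 and 1 in Flox 2. Of the 7 pan-leukocyte genes, 6 were highest in AdIGF1RKO 2. Mmp12, a macrophage protease, had 121 scaled CPM in AdIGF1RKO 2 and at most 13.3 in the other libraries, and Trem2, a lipid-sensing receptor of macrophages, had 62.8 there and at most 12.1 elsewhere. Whether the macrophage or other leukocyte RNA has a part in the Il7r value was not tested. Among the other members, Lat, an adaptor under the receptor, ran at 1.26 to 3.37 scaled CPM in AdIGF1RKO and 1.10 to 4.66 in Flox libraries. Tcf7, a transcription factor of naive and memory T cells, had a log2 difference of -0.18, and Ccr7, the receptor for CCL19 and CCL21, one of 0.31. Zap70, a kinase recruited to the phosphorylated receptor complex, ran at 0.509 to 1.20 scaled CPM in AdIGF1RKO and 0.435 to 1.67 in Flox libraries, and Cd5, which dampens receptor signalling, at 0.493 to 0.646 in AdIGF1RKO and 0.285 to 0.805 in Flox libraries. Both were under the filter.

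Of the 9 B cell genes with values, 3 were tested, 2 higher and 1 lower in AdIGF1RKO tissue, with a median log2 difference of 0.15. The 9 summed to 10.0, 6.36 and 6.51 scaled CPM in AdIGF1RKO libraries, against 7.69, 5.62 and 6.30 in Flox libraries. Cd79b, a signalling chain of the B cell receptor, had 3.06, 2.90 and 2.87 scaled CPM in AdIGF1RKO libraries, against 1.94, 1.35 and 1.51 in Flox libraries. Every AdIGF1RKO library was above every Flox library, and the 3 AdIGF1RKO values lay close together. The means were 2.94 ± 0.104 in AdIGF1RKO and 1.60 ± 0.300 in Flox tissue (SD, n = 3 each), a ratio of 1.84, from 182 to 236 reads in AdIGF1RKO and 73 to 137 in Flox libraries. The log2 difference was 0.61 (95% confidence interval 0.26 to 0.96, limma unadjusted p = 0.0050, adjusted p = 0.998), so it did not pass once all genes were counted. It was the only member under an unadjusted p of 0.05 in all 15 fits in which it was tested, with adjusted p from 0.289 upwards.

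Cd79a, its partner chain, had 2.24, 0.594 and 0.788 scaled CPM in AdIGF1RKO libraries, against 1.21, 1.03 and 0.497 in Flox libraries, and the groups overlapped (log2 difference 0.15, SE 0.32, limma unadjusted p = 0.645). The ratio of Cd79b to Cd79a reads, chosen after the levels were seen, was 1.36, 4.88 and 3.64 in AdIGF1RKO libraries, against 1.59, 1.32 and 3.04 in Flox libraries. Siglecg, an inhibitory receptor of B cells, leaned the other way, with 1.18, 1.33 and 1.04 scaled CPM in AdIGF1RKO libraries, against 2.37, 1.17 and 2.26 in Flox libraries (log2 difference -0.40, SE 0.21, limma unadjusted p = 0.105). Only Flox 2 lay inside the AdIGF1RKO range. The log2 ratio of the summed B cell members was 0.22, and -0.022 without AdIGF1RKO 1.

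The 6 B cell members under the filter rest on few reads. Ms4a1, which encodes the B cell surface protein CD20 and was singled out after its values were seen, had 39, 9 and 26 reads in AdIGF1RKO libraries, against 26, 12 and 11 in Flox libraries. Pax5, the transcription factor that keeps B cell identity, was singled out after its values were seen, with 41, 1 and 35 reads in AdIGF1RKO libraries, against 3, 12 and 12 in Flox libraries. It was near the floor of the table in AdIGF1RKO 2, the library that was also lowest for Ms4a1. Fcmr, a receptor for IgM, had 0.830, 0.127 and 0.378 scaled CPM in AdIGF1RKO libraries, against 0.904, 1.04 and 0.642 in Flox libraries. Cxcr5, the CXCL13 receptor that leads B cells into follicles, had 8, 3 and 5 reads in AdIGF1RKO libraries, against 15, 11 and 7 in Flox libraries. The Cxcr5 values did not overlap once scaled, at 0.0424 to 0.104 scaled CPM in AdIGF1RKO and 0.145 to 0.212 in Flox libraries, but its mean was under the filter, and the gene was singled out after its values were seen. Blk, a B cell kinase, ran at 0.127 to 0.376 scaled CPM in AdIGF1RKO and 0.212 to 0.271 in Flox libraries, and Cd22, an inhibitory lectin, at 0.142 to 1.18 in AdIGF1RKO and 0.257 to 0.539 in Flox libraries.

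Immunoglobulin and plasma cell genes included the most deeply counted members, Ighm and Igkc. Of the 5 tested, 1 was higher and 4 were lower in AdIGF1RKO tissue, with a median log2 difference of -0.43. Igkc, the constant part of the kappa light chain, had 171, 156 and 258 scaled CPM in AdIGF1RKO libraries, against 370, 278 and 235 in Flox libraries. AdIGF1RKO 3 lay above Flox 3, so the groups overlapped, while the other 2 AdIGF1RKO mice were below every Flox mouse. The means were 195 ± 55.0 in AdIGF1RKO and 294 ± 69.0 in Flox tissue (SD, n = 3 each), a ratio of 0.663. The log2 difference was -0.60 (95% confidence interval -1.18 to -0.021, limma unadjusted p = 0.0443, adjusted p = 0.998), and the unadjusted p was 0.0555 when replicate number was blocked. Ighm, the constant part of the IgM heavy chain, had the opposite sign, with 303, 576 and 485 scaled CPM in AdIGF1RKO libraries, against 394, 315 and 341 in Flox libraries. AdIGF1RKO 1 was the lowest of all 6 mice and the other 2 AdIGF1RKO mice were the highest, and the log2 difference was 0.33 (SE 0.24, limma unadjusted p = 0.214).

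Ighm was counted in 16466 to 40752 reads per library. Kappa light chain RNA can therefore be set against IgM heavy chain RNA within each library, without scaling between libraries. This comparison leaves out the lambda chains and the other heavy chains, so it is not the whole balance of light to heavy chain RNA. The ratio of Igkc to Ighm reads was 0.564, 0.271 and 0.532 in AdIGF1RKO libraries, against 0.939, 0.881 and 0.689 in Flox libraries. All 3 AdIGF1RKO ratios were below all 3 Flox ratios, with means of 0.455 ± 0.160 in AdIGF1RKO and 0.836 ± 0.130 in Flox tissue (SD, n = 3 each). This ratio was chosen after the levels of both genes were seen and is given without a test. Of all the read ratios between members that were computed, only Igkc to Ighm did not overlap between the groups. Jchain, which joins IgM and IgA into polymers and is made by plasma cells, had 32.2, 30.7 and 32.6 scaled CPM in AdIGF1RKO libraries, against 60.9, 55.0 and 28.7 in Flox libraries. Flox 1 and Flox 2 were well above the AdIGF1RKO mice and Flox 3 was below them, with a log2 difference of -0.51 (SE 0.27, limma unadjusted p = 0.104) that was -0.84 without Flox 3 and -0.31 without Flox 1. The ratio of Jchain to Igkc reads overlapped between the groups, at 0.188, 0.197 and 0.126 in AdIGF1RKO libraries, against 0.165, 0.198 and 0.122 in Flox libraries. So did the ratio of Jchain to Ighm reads, at 0.106, 0.0533 and 0.0672 in AdIGF1RKO libraries, against 0.155, 0.174 and 0.0842 in Flox libraries. Reads of the lambda constant genes Iglc1 to Iglc3 summed to 33.9, 16.5 and 25.5 scaled CPM in AdIGF1RKO libraries, against 30.7, 30.6 and 6.82 in Flox libraries.

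**Figure D4:**
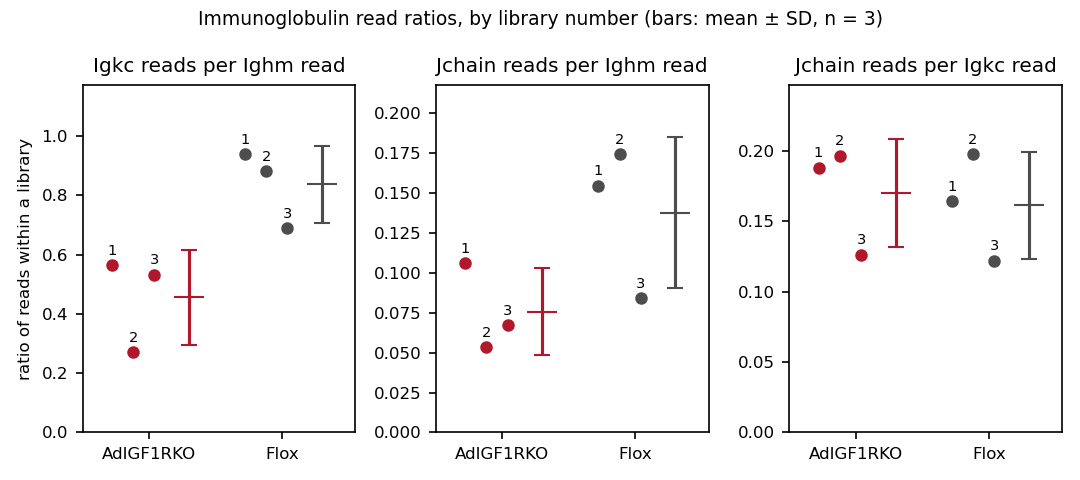
Ratios of reads of member genes within each library (vertical axes, linear from 0) in the AdIGF1RKO and Flox libraries; dots are libraries with their replicate numbers, and the bar beside them is the mean with its SD (n = 3 each). The Igkc to Ighm ratio is 0.271 to 0.564 in AdIGF1RKO and 0.689 to 0.939 in Flox libraries, without overlap. The Jchain to Ighm and Jchain to Igkc ratios overlap.

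Ighd, the constant part of the IgD heavy chain of mature naive B cells, had 1.98, 2.36 and 1.78 scaled CPM in AdIGF1RKO libraries, against 3.26, 1.95 and 1.24 in Flox libraries. Its log2 difference was -0.0060 (SE 0.25), and Flox 1 and Flox 3 were the outermost libraries, as for 8 of the 18 T cell members. Mzb1, an endoplasmic reticulum protein that helps immunoglobulin secretion, ran at 0.678 to 1.41 scaled CPM in AdIGF1RKO and 0.741 to 2.40 in Flox libraries (log2 difference -0.43). The sum over the 5 genes, which Ighm and Igkc dominate, was 685 ± 152 in AdIGF1RKO and 697 ± 118 in Flox tissue (SD, n = 3 each).

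The stromal and organising genes were lower in sum in AdIGF1RKO tissue, at 64.4, 75.1 and 74.5 scaled CPM in AdIGF1RKO libraries, against 91.1, 108 and 82.9 in Flox libraries. No AdIGF1RKO library reached the lowest Flox library, and the ratio of the means was 0.759 (log2 ratio -0.40, and -0.29 to -0.48 when each library in turn was left out). Cxcl13 was the largest part of the sum in every library. Flox 1, whose Cxcl13 lay under that of AdIGF1RKO 3, had the highest Ccl21a of the 6 libraries. None of the 4 genes passed the test, with 1 higher and 3 lower and a median log2 difference of -0.11. For each of the 4 genes alone the groups overlapped, and the sums of the other role groups overlapped as well. The 8 other stroma genes in the table summed to 328, 305 and 316 scaled CPM in AdIGF1RKO libraries, against 333, 329 and 272 in Flox libraries. Most of that sum was Cxcl12, at 240, 213 and 230 in AdIGF1RKO libraries, against 239, 242 and 199 in Flox libraries. Cxcl13, the follicle chemokine, had 32.4, 31.3 and 43.3 scaled CPM in AdIGF1RKO libraries, against 37.5, 73.6 and 53.6 in Flox libraries. AdIGF1RKO 3 was above Flox 1, so the groups overlapped, and the log2 difference was -0.57 (SE 0.26, limma unadjusted p = 0.064). Blocked on replicate number, limma gave Cxcl13 an unadjusted p of 0.0423 and an adjusted p of 0.914. The chemokines of the T cell zone had smaller log2 differences. Ccl21a had 17.6, 27.7 and 17.5 scaled CPM in AdIGF1RKO libraries, against 35.4, 19.7 and 16.6 in Flox libraries, a log2 difference of -0.14 (SE 0.31). Summed with Ccl21b, the values were 22.5, 34.7 and 23.3 in AdIGF1RKO libraries, against 42.3, 22.9 and 21.1 in Flox libraries, and the Flox mice again enclosed the AdIGF1RKO mice. Ccl19, the other CCR7 ligand, had 10.9, 13.6 and 11.8 scaled CPM in AdIGF1RKO libraries, against 14.9, 11.9 and 11.7 in Flox libraries, a log2 difference of -0.076 (SE 0.14). Ltb, which encodes lymphotoxin beta of lymphocytes, had 3.46, 2.60 and 1.88 scaled CPM in AdIGF1RKO libraries, against 3.24, 2.75 and 1.04 in Flox libraries, with a log2 difference of 0.17 (SE 0.32). Markers of lymphatic endothelium, which also lines lymph node sinuses, were summed as well. They reached 74.8, 77.3 and 56.6 scaled CPM in AdIGF1RKO libraries, against 100 and 102 in Flox 1 and Flox 2 and 50.5 in Flox 3. That sum follows mainly Lyve1, at 60.0, 63.1 and 43.3 in AdIGF1RKO libraries, against 86.0, 84.8 and 36.9 in Flox libraries. Of the 4 markers tested, 3 were lower in AdIGF1RKO tissue and Flt4 was higher, none past the test. Under the filter, the mean of Prox1 was higher in AdIGF1RKO than in Flox tissue (0.391 against 0.338 scaled CPM). The mean of Nts, also under the filter, was lower (0.423 against 0.668), so the markers did not share a direction. The part of these markers in the chemokine values was not tested.

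Other genes of the same cells, listed by symbol beside the members, also held none past the test. Of 92 such genes 79 were in the table and 60 were tested, 38 higher and 22 lower in AdIGF1RKO tissue, with a median log2 difference of 0.056, beside 44.8% of all genes higher and a median of -0.019. The split was 42 higher and 18 lower with libraries scaled to equal sums, and 15 higher and 45 lower with the values as deposited, so the direction depended on the scaling. At an adjusted p under 0.05, 0 of the 60 passed in limma, and 1 did at an unadjusted p under 0.05 (Pim2), beside 2.96% of all genes. In edgeR and DESeq2 0 passed at an adjusted p, and 1 and 2 passed at an unadjusted p under 0.05, the second being Irf4 in DESeq2. With replicate number blocked, 0 passed in limma at an adjusted p (smallest 0.914) and 5 at an unadjusted p (Xcl1, Satb1, Gzma, Iglc3 and Pim2), beside 4.48% of all genes. The T cell list had 11 of 17 higher and 6 lower, the B cell list 11 of 14 higher and 3 lower, the list of NK and cytotoxic genes 6 of 10 higher and 4 lower, and the list of stroma 6 of 7 higher and 1 lower. In the plasma cell list 4 of 12 were higher and 8 lower, so that list and the immunoglobulin members had most of their genes on the lower side, none past the test. The values of 5 of the 79 did not overlap, beside 8.44% of all genes.

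Pim2, a survival kinase of plasma cells and other lymphocytes, had 3.54, 3.62 and 2.55 scaled CPM in AdIGF1RKO libraries, against 4.75, 4.42 and 5.49 in Flox libraries, with no overlap (log2 difference -0.48, SE 0.16, limma unadjusted p = 0.021, adjusted p = 0.998). Irf4, a transcription factor of plasma cells that adipocytes also express, had 14.2, 12.7 and 16.7 scaled CPM in AdIGF1RKO libraries, against 18.0, 40.4 and 18.2 in Flox libraries, where Flox 2 stood far above the rest. The cytotoxic granule protease Gzma had 10.9, 8.12 and 9.52 scaled CPM in AdIGF1RKO libraries, against 10.5, 4.19 and 4.81 in Flox libraries. Xcl1, a chemokine of NK and CD8 T cells, had 5.72, 1.44 and 2.71 in AdIGF1RKO libraries, against 11.3, 4.13 and 4.19 in Flox libraries. Ltbr, the receptor for lymphotoxin on stroma, had 46.9, 44.5 and 45.9 scaled CPM in AdIGF1RKO libraries, against 43.7, 40.8 and 39.8 in Flox libraries, without overlap (log2 difference 0.14), but with the values as deposited the sign turned to -0.02. None of these 5 genes passed the test after adjustment.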

How the data were processed

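Poly(A)-selected, strand-specific RNA libraries of inguinal white adipose tissue from AdIGF1RKO and Flox mice, 3 libraries per group, were sequenced, per the labels' protocols. The build was GRCm39, per the submitters' processing notes, while for the aligner, counter and annotation nothing is given in the sources used here. The deposited table is named FPKM, but its values are a signal made of read counts scaled per library, with no division by gene length: every deposited value lay within 0.5, the rounding of the table, of a multiple of the worth of 1 read, which is 1000000000 over 1 divisor per library (39206000 to 81802000). The table holds no value under 1 read, 36 of the 39 genes were matched by symbol, and 0 columns were left unused.

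Size factors from the median-ratio method scaled the recovered reads (0.731 to 1.17) to give scaled CPM, on which 1 read is worth 0.0130 to 0.0207. Genes with a mean of at least 1 scaled CPM over the 6 libraries were tested on log2(scaled CPM + 1) with limma 3.58.1 (R 4.3.3, trend, two-sided, Benjamini-Hochberg over 12993 genes, threshold 0.05); the pseudocount understates the change of low genes. The limma step was also run on simulated counts with the same dispersion for every gene. That run checked the code and did not measure what change could be detected in these libraries. The recovered counts were also tested with edgeR 4.0.16 and DESeq2 1.42.0. An exact permutation test of 3 against 3 cannot go below p = 0.10 and was not used.

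The members, lists and tests were chosen with earlier results of these data known. Levels per library were printed for up to 4 members of each role group with the highest mean and for members with an unadjusted limma p under 0.05; other members given per library are named as chosen after their values were seen. Of the other lymphoid genes, the 5 with the smallest p were named. The sample titles give a group and a replicate number and do not say whether a library is 1 mouse or a pool. Each library was taken as 1 mouse, and p-values weigh the group difference against the spread between libraries. Deviations from the group means correlated over genes at 0.347, 0.349 and 0.834 between same-numbered libraries, for numbers 1, 2 and 3. AdIGF1RKO 1 was closer to Flox 2 (0.700), and AdIGF1RKO 2 was nearly as close to Flox 1 (0.326). Only the libraries numbered 3 therefore stood clearly together. The labels do not say what a number shares, and the numbers were taken as pairing for the blocked fit. Coding sequences came from GENCODE M21 on GRCm38.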

Additional observations from a re-analysis of the deposited data

How the results depend on the processing

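No member passed an adjusted p under 0.05 in any of the 16 fits. Over all genes 0 passed in limma, 23 in DESeq2, and 0 to 1 when each library in turn was left out. With the replicate number as a block 0 genes passed (smallest adjusted p 0.416), so the pairing changed no call. The median of the members was -0.025, between -0.24 and 0.25 with a library left out, and between -0.27 and 0.040 under the other alternatives. Of 273 alternative values for the 19 named members tested, 24 had the other sign, and 11 members kept 1 sign throughout. With the values as deposited, Lck was -0.052 and Cd2 -0.12. With libraries scaled to equal sums, Ighd was 0.059 and Ccl19 0.036, and Ighd was 0.012 with a pseudocount of 0.25. In edgeR, Cd3g was -0.024 and Lck -0.064, and in DESeq2 Cd3g was -0.025 and Lck -0.068. Without Flox 3 and AdIGF1RKO 3, the libraries richest in muscle RNA, Cd3g was -0.17 and Lck -0.11. With 1 library left out, the log2 difference ran from -0.36 to 0.59 for Cd3g, -0.21 to 0.50 for Lck, -0.23 to 0.28 for Cd2, -0.014 to 0.35 for Cd79a, -0.23 to 0.24 for Ighd, -0.36 to 0.17 for Ccl21a, -0.16 to 0.031 for Ccl19 and -0.15 to 0.38 for Ltb. The cause was not tested. Depth limits the B cell genes most: 6 members had under 10 reads in at least 1 library, and what change could be detected at such counts was not measured.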

Other observations

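Other markers of NK and cytotoxic cells were also high in Flox 1. The 12 genes of that list summed to 73.2, 72.2 and 59.5 scaled CPM in AdIGF1RKO libraries, against 120, 55.4 and 42.8 in Flox libraries, and 9 of the 12 were highest in Flox 1, while 5 were lowest in Flox 3 and 4 in Flox 2. Ccl5, a chemokine of activated T and NK cells that was picked after its values were seen, had 28.3, 28.0 and 23.9 scaled CPM in AdIGF1RKO libraries, against 51.1, 23.3 and 15.3 in Flox libraries. Igha, the constant part of the IgA heavy chain, likewise picked after its values were seen, had 35.7, 49.9 and 21.6 scaled CPM in AdIGF1RKO libraries, against 66.1, 58.3 and 18.9 in Flox libraries, so Flox 1 and Flox 2 were above all AdIGF1RKO mice and Flox 3 below them, as for Jchain.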
